A study of Homo sapiens with 9 samples.

Results

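The 16p13.3 band, taken here as chromosome 16 from 1.0 to 5.5 Mb, and the 16q24 band, from 84.0 to 89.3 Mb, are stretches near the ends of the chromosome (hg19 coordinates throughout). Their members were the γH2AX regions whose midpoint lay inside these limits, in any of 8 libraries: 4503 of 234983 regions, 2136 in 16p13.3 and 2367 in 16q24. The bands made up 10.9% of the span over which regions were called on chromosome 16 and were cut into 98 windows of 100 kb, 45 in 16p13.3 and 53 in 16q24. The remaining 80.4 Mb of the chromosome held 8953 regions and served as the comparison.

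The regions came from chromatin immunoprecipitation and sequencing with an antibody to γH2AX in K562, an established human myelogenous leukaemia line. Wild-type cells (WT) and cells with a FANCL knockout (KO) were given a mock treatment or 5 nM of the phorbol ester PMA for 72 h. Each of the 4 groups (WT mock, WT PMA, KO mock, KO PMA) had 2 libraries, and the study asked what loss of FANCL does in DNA repair and in the differentiation of blood cells. Whether the KO cells were 1 clone or several, and whether the libraries of a group came from separate cultures, is not given in the labels, so the tests below see only library-to-library variation, perhaps of technical origin. All libraries were compared by the authors with 1 input library, made from WT mock cells.

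H2AX is a histone variant that kinases of the DNA damage response phosphorylate in the chromatin around a DNA break or a stalled replication fork, and the phosphorylated form is called γH2AX. FANCL is the ubiquitin ligase of the Fanconi anaemia pathway, which helps cells repair DNA crosslinks and protect replication forks. Gene-dense bands in general carry many CpG-rich promoters, tend to replicate early in S phase and lie in open chromatin.

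In the NCBI RefSeq gene table (assembly GRCh38.p14, used for names, order and promoter sequence only), the run of protein-coding genes from SOX8 to EEF2KMT, which borders the 16p13.3 band, held 147 genes, and the run from SLC38A8 to ZNF778 in 16q24 held 59. Together they were 206 of the 854 protein-coding genes of the chromosome, or 24.1%. By band this was 17.2% of the genes in 4.99% of the called span for 16p13.3, but 6.91% of the genes in 5.88% of the span for 16q24, so the counts show 16q24 as little denser than the chromosome at large. Promoter sequences, 300 bases each from upstream of the start to just past it, were matched for 112 and 44 of them. Their median GC content was 69.0% in 16p13.3 and 73.0% in 16q24, against 65.3% for 455 promoters elsewhere on chromosome 16 and 58.3% for all 27305 promoters in the table. The median number of CG dinucleotides per promoter was 31.5 and 37, against 25 on the rest of the chromosome and 14 over all promoters, of which 95.8% held at least 1 CG.

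Promoters of 4 genes are shown, chosen after the window values were seen, 3 from windows that were among the most covered in KO PMA cells and 1 from a nearly empty window. They run 5′ to 3′ on the strand of the gene, with each CG in capitals. CG reads the same on both strands, and it was the only motif searched. No γH2AX value belongs to these bases themselves, since the regions are on hg19 and the sequences on GRCh38.p14.
TRAF7 (plus strand, a ubiquitin ligase of growth signalling): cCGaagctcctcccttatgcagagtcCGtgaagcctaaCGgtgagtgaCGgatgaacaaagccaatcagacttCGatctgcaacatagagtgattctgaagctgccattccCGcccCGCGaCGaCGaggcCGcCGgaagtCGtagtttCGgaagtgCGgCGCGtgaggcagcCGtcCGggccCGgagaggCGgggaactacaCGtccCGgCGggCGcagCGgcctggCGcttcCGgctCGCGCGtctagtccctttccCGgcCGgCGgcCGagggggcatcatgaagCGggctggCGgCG
CDT1 (plus strand, a licensing factor of replication origins): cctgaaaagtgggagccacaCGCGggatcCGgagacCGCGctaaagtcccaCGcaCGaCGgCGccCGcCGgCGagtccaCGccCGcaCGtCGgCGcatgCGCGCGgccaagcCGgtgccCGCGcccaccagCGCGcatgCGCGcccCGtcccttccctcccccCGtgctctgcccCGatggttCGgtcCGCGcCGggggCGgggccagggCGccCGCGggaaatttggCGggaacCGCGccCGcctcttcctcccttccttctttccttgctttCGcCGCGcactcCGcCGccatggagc
CYBA (minus strand, a subunit of the phagocyte NADPH oxidase): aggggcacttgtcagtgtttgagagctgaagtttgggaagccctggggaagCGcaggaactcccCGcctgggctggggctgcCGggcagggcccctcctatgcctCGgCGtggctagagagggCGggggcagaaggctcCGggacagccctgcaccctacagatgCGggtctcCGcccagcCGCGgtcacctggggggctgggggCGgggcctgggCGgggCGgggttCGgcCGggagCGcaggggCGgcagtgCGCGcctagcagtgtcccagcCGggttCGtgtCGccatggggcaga
MEFV (minus strand, pyrin, an innate immune sensor of myeloid cells): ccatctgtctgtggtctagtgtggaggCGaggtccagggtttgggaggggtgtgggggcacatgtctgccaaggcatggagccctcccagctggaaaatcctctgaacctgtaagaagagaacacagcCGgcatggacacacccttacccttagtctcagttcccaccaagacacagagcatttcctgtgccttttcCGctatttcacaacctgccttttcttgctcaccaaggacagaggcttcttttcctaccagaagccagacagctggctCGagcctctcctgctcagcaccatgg
The TRAF7 promoter held 38 CG in 300 bases, that of CDT1 47 and that of CYBA 23. The MEFV promoter, from the nearly empty window, held 4. The CYBA promoter was below the 16q24 median of 37. With 4 promoters chosen in this way, a relation of CG number to coverage was not tested.

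Sequencing depth ran from 15.6 to 27.2 M tags (M, mega) per library, and the 4 KO libraries, at 15.6 to 18.3 M, were shallower than 3 of the 4 WT libraries. HOMER, the region caller the authors used, set its own tag threshold in each library, from 5.89 to 7.69 tags per 10 M. Its estimate of the share of tags inside regions was 1.39 and 1.55% in WT mock, 3.42 and 3.67% in KO mock, 4.24 and 4.69% in WT PMA, and 6.69 and 7.96% in KO PMA. More γH2AX in each cell, more cells with γH2AX and a better immunoprecipitation cannot be told apart in these bulk libraries. This share moved with the groups in the order of WT mock, KO mock, WT PMA and KO PMA, and its part in the results below was not tested.

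KO cells had far more of both bands inside γH2AX regions than WT cells, with either treatment. The covered length of the 16p13.3 band, the number of base pairs inside its regions, was 12.8 and 28.3 kb in the WT mock libraries, 43.1 and 44.9 kb in WT PMA, 289 and 349 kb in KO mock, and 791 and 653 kb in KO PMA. In the 16q24 band it was 44.4 and 60.2 kb in WT mock, 104 and 132 kb in WT PMA, 328 and 375 kb in KO mock, and 747 and 606 kb in KO PMA. In both bands each KO library exceeded each WT library, and no groups overlapped. KO mock exceeded WT PMA, although a smaller share of its tags lay inside regions. The groups of the rest of chromosome 16 kept a different order: there, WT PMA (831 and 730 kb) lay close to KO mock (851 and 823 kb), with WT mock at 185 and 207 kb and KO PMA at 1996 and 1549 kb.

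The ratio of KO to WT was the largest in 16p13.3. Mean covered length there was 15.5-fold higher in KO than in WT cells under mock treatment and 16.4-fold higher after PMA. For 16q24 these ratios were 6.72 and 5.75, and for the rest of the chromosome 4.27 and 2.27. WT mock replicate 2 had a higher covered length of replicate 1 in 16p13.3, and without replicate 2 the log2 ratio of KO mock to WT mock went from 3.96 to 4.64. Over both treatments the genotype ratio was 16.5 in 16p13.3, 6.25 in 16q24 and 3.11 in the rest, each with an exact permutation p of 0.0556, two-sided, the smallest that 36 labellings within treatments allow. A comparison of 2 libraries with 2 cannot go below 0.333, so single group comparisons of band totals carry no p here.

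**Figure D1:**
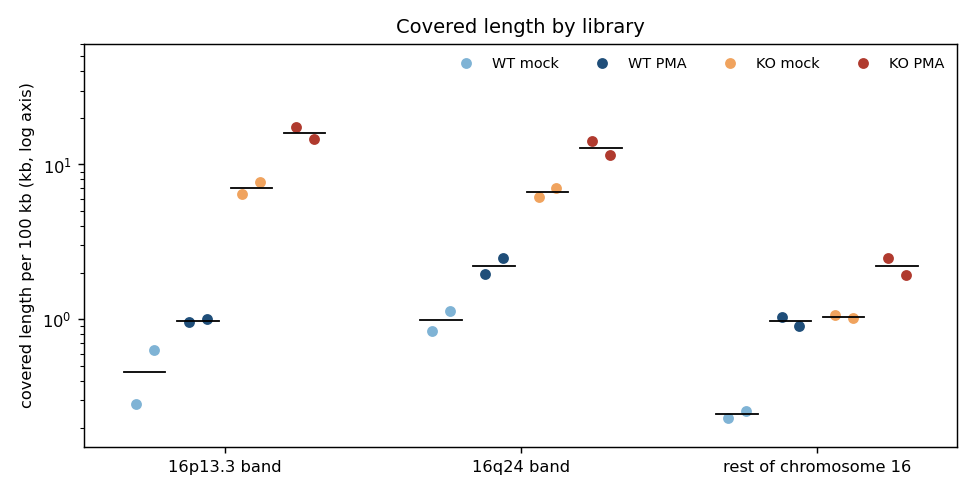
Covered length per 100 kb of sequence (kb, log axis) in the 16p13.3 band, the 16q24 band and the rest of chromosome 16; each point is 1 library and each line a group mean of 2 libraries. In 16p13.3 the KO points lie at 6.43 to 17.6 kb and the WT points at 0.285 to 0.998 kb, while in the rest of the chromosome WT PMA and KO mock lie side by side near 1 kb.

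Relative to the rest of the same chromosome, the bands took a greater share of coverage in KO cells. The 16p13.3 band held 5.29 and 9.60% of all covered length on chromosome 16 in WT mock, 4.40 and 4.96% in WT PMA, 19.7 and 22.6% in KO mock, then 22.4 and 23.3% in KO PMA. The 16q24 band held 18.3 and 20.4%, 10.6 and 14.5%, 22.3 and 24.2%, and 21.1 and 21.6% in the same order. KO libraries lay above WT libraries in both bands, by a wide gap in 16p13.3 and a narrow one in 16q24. The share was 3.8-fold higher in KO cells over both treatments in 16p13.3 and 1.44-fold higher in 16q24 (exact permutation p = 0.0556 each, two-sided, the smallest possible). The 16q24 share under mock treatment depended on the tag threshold. Its log2 ratio of KO to WT was −0.01 with 1 threshold for all libraries, against 0.27 as called. The 1 threshold kept called regions with a mean of at least 7.69 tags per 500 bp and 10 M tags, without new calling. WT PMA replicate 2 was the higher of its pair, and without it the 16q24 log2 ratio under PMA was 1.01, against 0.77 with it.

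As called, the ratio of PMA to mock covered length was near 2 in both bands and genotypes. PMA libraries exceeded mock libraries of the same genotype in each band: by 2.14-fold in WT and 2.26-fold in KO cells in 16p13.3, and by 2.25-fold and 1.92-fold in 16q24. In the rest of the chromosome the WT ratio was 3.99 and the KO ratio 2.12. With regions of at least 6-fold alone the log2 ratio in KO cells was 0.41 in 16p13.3 and turned to −0.015 in 16q24, while that in WT cells was 1.1 and 0.79. With 1 tag threshold the 16q24 log2 ratio was 1.67 in WT and 1.01 in KO cells, against 1.17 and 0.94 as called. The share of the chromosome's coverage held by both bands together was 23.6 and 30% in WT mock and 15 and 19.5% in WT PMA. In KO cells it was 42.0 and 46.8% (mock) or 43.5 and 44.8% (PMA). The WT groups did not overlap in this share, the PMA libraries being the lower ones, and the KO groups overlapped. Over both genotypes the treatment ratio of this share was 0.800, with an exact permutation p of 0.167 (two-sided). Without WT mock replicate 2 the log2 ratio of WT PMA to WT mock covered length in 16p13.3 was 1.78, against 1.1 with it.

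Coverage was denser still between the bands and the chromosome ends. Per 100 kb, the first Mb of the chromosome had 14.1 and 16.8 kb covered in KO mock and 34.7 and 29.1 kb in KO PMA, against 2.76 and 4.25 kb in WT mock and 3.32 and 3.97 kb in WT PMA. The stretch after 89.3 Mb had 11.4 and 10.6 kb in KO mock and 27.9 and 23.3 kb in KO PMA, with 3.99 to 6.23 kb in the WT libraries. Between the bands only 0.144 to 1.79 kb per 100 kb was covered in any library. The bands lay between the ends and the middle in density in KO cells, at 6.43 and 7.76 kb per 100 kb in KO mock and 17.6 and 14.5 kb in KO PMA for 16p13.3, and at 6.19 and 7.08 kb and 14.1 and 11.4 kb for 16q24.

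Regions in the bands were also wider in KO cells. The mean width in 16p13.3 was 513 and 545 bp in WT mock, 598 and 569 bp in WT PMA, 795 and 856 bp in KO mock, and 1319 and 1218 bp in KO PMA. In 16q24 it was 548 and 627 bp, 665 and 669 bp, 814 and 920 bp, and 1417 and 1215 bp. The caller's windows were 500 bp wide, which is the shortest region it gives, and the median width was 500 bp in each WT library. Mean width was 1.84-fold higher in KO than in WT cells in 16p13.3 and 1.70-fold higher in 16q24, against 1.33-fold in the rest of the chromosome (exact permutation p = 0.0556 for each, two-sided, the smallest possible). That rest includes the first Mb, where mean width in KO PMA was 1834 and 1433 bp, above either band, so wide regions were not particular to the bands. The caller joins neighbouring windows that pass into 1 region, and the part of this in the widths was not tested.

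**Figure D2:**
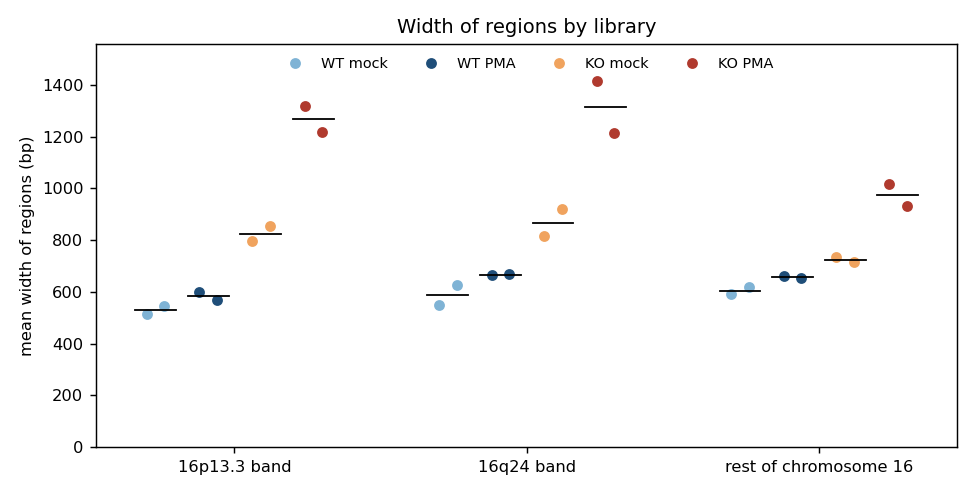
Mean width of γH2AX regions (bp) in the 16p13.3 band, the 16q24 band and the rest of chromosome 16; each point is 1 library and each line a group mean of 2 libraries. KO PMA points lie at 1215 to 1417 bp in the bands and at 934 to 1019 bp in the rest, and all WT points lie between 513 and 669 bp.

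Regions of at least 5 kb were found in the bands of KO libraries only. Both bands together held 35 and 22 of them in KO PMA, 0 and 2 in KO mock, and 0 in each of the 4 WT libraries. The rest of the chromosome, a much longer span, held 26 and 15 in KO PMA. In KO PMA these long regions made up 18.3 and 13.2% of the covered length of the bands, and 26.6 and 20.0% of that of the first Mb. The longest in 16p13.3 spanned 15978 bp at chr16:2016756-2032734, at 3.66-fold over input, in KO PMA replicate 2. The longest in 16q24 spanned 16544 bp at chr16:88800554-88817098, at 3.32-fold, in KO PMA replicate 1. On the hg19 map, the former starts just beyond RPS2, a gene of the small ribosomal subunit, and the latter lies in PIEZO1, which encodes a mechanically gated ion channel.

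Regions were far more numerous in KO cells, and in 16p13.3 their median fold over input was lower, though their median signal was higher. The 16p13.3 band had 25 and 52 regions in WT mock, 72 and 79 in WT PMA, 364 and 408 in KO mock, then 600 and 536 in KO PMA. In 16q24 the numbers were 81 and 96, 156 and 197, 403 and 408, and 527 and 499. KO libraries had more regions than WT libraries throughout. The median fold over input, the authors' own value for a region, was 4.75 to 5.82 in the WT libraries and 3.82 to 4.17 in the KO libraries in 16p13.3. In 16q24 it was 3.83 to 4.66 in the WT and 3.56 to 3.87 in the KO libraries, and the ranges overlapped. Regions of at least 6-fold in 16p13.3 were 26.9 to 40% of the list in the WT libraries and 12.2 to 17.4% in the KO libraries. In number they were 10 and 14 in WT mock, 23 and 26 in WT PMA, 60 and 71 in KO mock, then 73 and 83 in KO PMA. The input itself was denser under the regions of KO cells, at 4.45 to 5.20 tags per kb per 10 M in 16p13.3 against 2.37 to 3.23 under the WT regions. The rest of the chromosome showed the same kind of gap, at 4.23 to 4.65 against 2.81 to 3.54. The part of input density in the differences was not tested, and a difference in copy number from WT mock cells is not corrected for.

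Regions were found again in the second library of a group more often in KO than in WT lists. In 16p13.3, 3 regions of WT mock replicate 1 overlapped 1 of replicate 2 by at least 1 bp, which was 12% of the list, and in WT PMA it was 10, or 13.9%. In KO mock it was 162, or 44.5%, and in KO PMA 343, or 57.2%. For 16q24 the numbers were 14 (17.3%), 53 (34%), 183 (45.4%) and 303 (57.5%). The rest of the chromosome had the same order of groups, at 13.5, 24.1, 30.6 and 40.9%. Longer coverage also raises such overlap, and its part was not tested. Positions shared between genotypes were a small part of the KO lists: of the 343 reproducible 16p13.3 regions of KO PMA cells 2 overlapped one of WT PMA cells (0.583% of the KO list, 20% of the 10 WT regions), and of the 303 in 16q24 18 did (5.94%). For the rest of the chromosome it was 63 of 801 (7.87%). Of the much shorter WT PMA list of 16q24, 21 of 53 regions overlapped a KO PMA region (39.6%), and 6 of 14 did so under mock treatment (42.9%). On the rest of the chromosome it was 65 of 304 (21.4%) after PMA and 10 of 42 (23.8%) under mock treatment. In 16p13.3 under mock treatment, 0 of the 162 KO regions and 0 of the 3 WT regions overlapped.

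Of the 98 windows of the bands, 85 were covered in at least 2 libraries and were tested, 41 in 16p13.3 and 44 in 16q24. Among the other 13, 9 were covered in 1 library and 4 in none. The test was limma, on log2(covered bp + 1000) over 9552 windows of the genome in 1 fit of all 8 libraries, with Benjamini-Hochberg adjustment and a threshold of 0.05. A window passed the filter also where KO libraries alone covered it, so the counts that follow describe the windows tested and not the bands as a whole. Window differences below are on this log2 scale, in which an empty window counts as 1000 bp and small coverage is damped.

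Under mock treatment KO cells had higher coverage in most windows tested. In 16p13.3, 31 of 41 windows were higher in KO mock than in WT mock cells, and in 16q24 29 of 44. No window of either band was lower. Among all windows tested 17.2% were higher and 3.61% lower, and on the rest of chromosome 16 86 of 312 were higher (27.6%) and 1 lower. The median log2 difference was 1.86 over both bands and 0.29 over all windows tested. The calls leaned on each of the 4 mock libraries: without 1 of them, 25 to 39 windows of the bands were called higher, against 60 with all. When only regions of at least 6-fold were kept, 6 windows of the bands were called higher. Over all windows tested the count also fell with this filter, from 1647 of 9552 to 155 of 7254.

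The windows with the largest differences in 16p13.3 lay between 1.4 and 2.3 Mb. In the window from 2.2 to 2.3 Mb, where TRAF7, E4F1 (a transcriptional regulator of the cell cycle) and MLST8 (a subunit of the mTOR complexes) lie, covered length was 1.0 and 0 kb in WT mock, 1.0 and 1.42 kb in WT PMA, 19.1 and 29.5 kb in KO mock, and 62.9 and 55.1 kb in KO PMA. The KO libraries lay far above the WT libraries, with no overlap. KO exceeded WT by 4.13 under mock treatment (SE 0.39, limma adjusted p = 0.0025) and by 4.77 after PMA (SE 0.39, limma adjusted p = 0.0011). The window from 2.1 to 2.2 Mb, which holds much of TSC2, a brake on mTOR signalling, and of PKD1, the polycystin of kidney disease, had 17.4 and 16.8 kb in KO mock and 33.2 and 32 kb in KO PMA, with at most 0.836 kb in any WT library. Its mock difference was 3.76 (SE 0.39, limma adjusted p = 0.0032). The window from 2.0 to 2.1 Mb, with RPS2 and the base excision repair gene NTHL1, had 21.8 and 17.6 kb in KO mock and 62.0 and 60.5 kb in KO PMA, with at most 1.28 kb in a WT library. Its difference after PMA, 5.37 (SE 0.40, limma adjusted p = 0.00081), was the largest of the band windows in that comparison. The windows from 1.4 to 1.5 and from 1.7 to 1.8 Mb complete the 5 largest mock differences, at 3.59 each.

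In 16q24 the largest mock differences lay near 88.5 to 89.0 Mb and at 85.6 Mb. The window from 88.5 to 88.6 Mb, with ZFPM1, the cofactor of GATA1 in red cell and platelet precursors, had 0.5 and 0 kb in WT mock, 0.5 and 2.31 kb in WT PMA, 12.3 and 19.9 kb in KO mock, and 49.7 and 37.0 kb in KO PMA. KO and WT libraries did not overlap, and the mock difference was 3.77 (SE 0.48, limma adjusted p = 0.0058). The window from 85.6 to 85.7 Mb, in GSE1, which encodes a coiled-coil protein, had at most 6.28 kb in a WT library and 60.6 and 50.7 kb in KO PMA. The window from 88.8 to 88.9 Mb, which holds CDT1, APRT (a purine salvage enzyme) and much of PIEZO1, had 2.63 and 1.0 kb in WT mock, 2.73 and 3.50 kb in WT PMA, 19.7 and 33.4 kb in KO mock, and 69.3 and 62.9 kb in KO PMA. The difference was 3.31 under mock treatment and 4.03 after PMA (limma adjusted p = 0.0043 and 0.0016). With regions of at least 6-fold alone this window turned, to −0.21 and −0.50. In the window from 88.9 to 89.0 Mb, which holds part of CBFA2T3, a transcriptional corepressor of blood precursors, KO mock had 27.6 and 31.5 kb and WT mock 1.0 and 3.77 kb (3.30, SE 0.70, limma adjusted p = 0.028). The window from 87.7 to 87.8 Mb was the exception in its response to PMA: 0 kb in WT mock, 6.0 and 8.79 kb in KO mock, but 3.92 and 2.26 kb in KO PMA.

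After PMA the bands were again higher in KO cells. In KO PMA against WT PMA, 27 of 41 windows of 16p13.3 were higher and 19 of 44 of 16q24, and none was lower. Over all windows tested 15.9% were higher and 21.9% lower. On the rest of chromosome 16, 62 of 312 windows were higher and 29 lower. The median log2 difference was 1.47 over both bands and −0.21 over all windows. Leaving out any 1 library gave 36 to 46 higher windows, against 46, and without KO PMA replicate 1 there was 1 lower window. With regions of at least 6-fold alone, 6 windows of the bands were higher. Over all windows tested the count went from 1517 of 9552 to 358 of 7254 with this filter.

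The leading windows after PMA included several of those that led under mock treatment. The window from 2.5 to 2.6 Mb, with ATP6V0C of the proton pump of lysosomes and TBC1D24, differed by 5.03, with 51.4 and 55.6 kb in KO PMA and 0 and 1.79 kb in WT PMA. The window from 1.4 to 1.5 Mb had 43.6 and 39.8 kb in KO PMA and 1.0 and 0 kb in WT PMA (4.91). In 16q24, the window from 89.0 to 89.1 Mb, with the other part of CBFA2T3, led with 4.88 (SE 0.37, limma adjusted p = 0.00087): 41.0 and 29.9 kb in KO PMA and 0 and 0.5 kb in WT PMA. The window from 89.2 to 89.3 Mb, with the cadherin gene CDH15, had 38.8 and 28.2 kb in KO PMA and 1.28 and 1.0 kb in WT PMA, a difference of 4.0. The windows from 88.5 to 88.6 and from 88.9 to 89.0 Mb, whose mock values are given above, differed by 4.30 and 4.17 after PMA, the latter with 58.6 and 41.9 kb in KO PMA and 0.5 and 4.26 kb in WT PMA. The window with the longest coverage of either band in KO PMA lay at 88.7 to 88.8 Mb, around CYBA and MVD, an enzyme of sterol synthesis, with 74.0 and 63.4 kb, against 31.8 and 35.9 kb in KO mock. The WT libraries there had 2.95 and 7.95 kb (mock) or 3.65 and 4.36 kb (PMA).

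**Figure D3:**
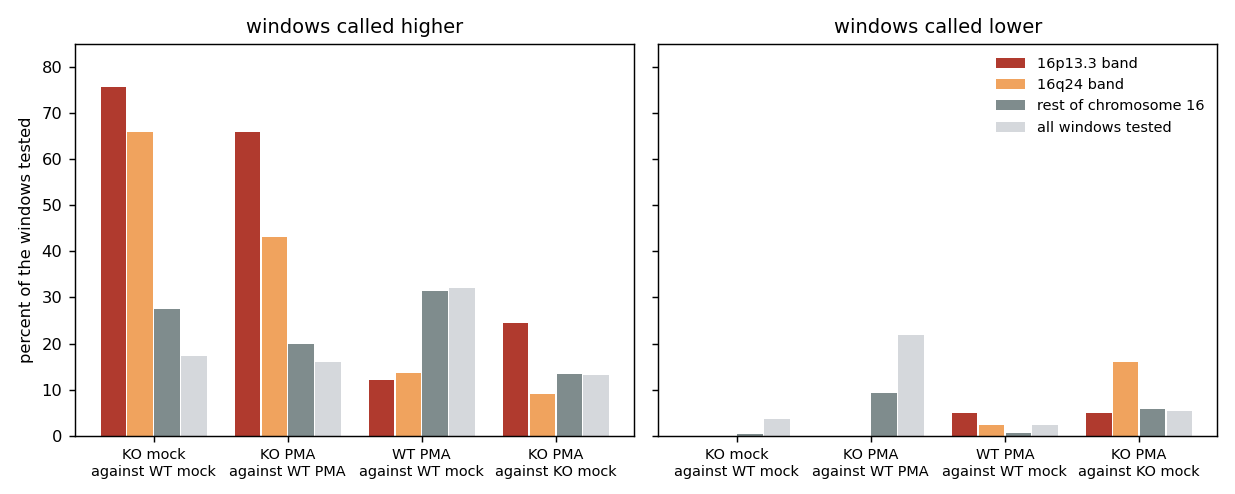
Percent of tested 100-kb windows called higher (left) and lower (right) in each comparison by limma at an adjusted p of 0.05, for the 16p13.3 band (41 windows), the 16q24 band (44), the rest of chromosome 16 (312) and all windows tested (9552). In both KO against WT comparisons the bands have the tallest bars for higher windows and no bar for lower ones, while for windows higher in WT PMA against WT mock their bars are shorter than that of all windows.

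Most band windows called after PMA were also called under mock treatment. Of the 60 windows higher in KO mock and the 46 higher in KO PMA, 43 were in both lists, which was 71.7% of the mock list and 93.5% of the PMA list. Over all windows tested, 854 were in both lists, which was 51.9% of the 1647 in the mock list and 56.3% of the 1517 in the PMA list. Such shares rise with the share of windows called. Of the band windows tested, 70.6% were in the mock list and 54.1% in the PMA list, against 17.2 and 15.9% of all windows tested. Whether the overlap in the bands exceeds what these rates alone would give was not tested. The comparisons share no library but come from 1 fit, with the same estimate of spread for a window. Another 17 band windows were called under mock treatment alone, 3 after PMA alone and 22 in neither.

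In WT cells few of the tested windows of the bands were called as changed by PMA. Of 41 windows in 16p13.3, 5 rose and 2 fell in WT PMA against WT mock, and of 44 in 16q24 6 rose and 1 fell. Among all windows tested 32.1% rose and 2.31% fell, and on the rest of chromosome 16 98 of 312 rose and 2 fell. The median log2 difference was 0.09 in the bands and 0.66 over all windows. Relative to that genome-wide shift, with each library centred on its own median, 4 of the 85 windows of the bands rose and 9 fell. Of all 9552 windows tested with this centring, 1247 rose and 941 fell. With 1 tag threshold for all libraries 4 windows of the bands rose and 0 fell, against 1295 and 90 of all 7422 windows tested. Without 1 of the 4 WT libraries, 4 to 6 rose and 0 to 3 fell. Some windows of the bands passed the filter through KO libraries alone. They held 0 kb in all 4 WT libraries and could not be called here, and how far this lowered the counts was not tested. Total covered length in WT cells still rose 2.14-fold in 16p13.3 and 2.25-fold in 16q24, against 3.99-fold in the rest of the chromosome. As given above, the rise in that rest lay mostly between the bands and was small at the chromosome ends.

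Several windows that rose in WT PMA cells had as much coverage there as in KO mock cells, or more, while others had less. The window from 84.1 to 84.2 Mb, with MBTPS1, the protease that activates sterol-sensing transcription factors, had 2.82 and 0.5 kb in WT mock, 14.3 and 13.4 kb in WT PMA, 4.39 and 6.65 kb in KO mock, and 9.14 and 4.78 kb in KO PMA. WT PMA was the highest group there, and the response in WT cells was 2.64 (SE 0.52, limma adjusted p = 0.016). The window from 85 to 85.1 Mb, around ZDHHC7 and KIAA0513, had 1.0 and 2.0 kb in WT mock, 11.2 and 11.8 kb in WT PMA, 7.84 and 7.68 kb in KO mock, and 29.1 and 25.5 kb in KO PMA. It rose in both genotypes, by 2.35 in WT and 1.69 in KO cells (limma adjusted p = 0.0026 and 0.0092). The window from 84.7 to 84.8 Mb, in USP10, a deubiquitinase, had 13.9 and 10.6 kb in WT PMA, close to the 12.8 and 14.4 kb of KO PMA, and the genotypes overlapped after PMA. In 16p13.3 the windows from 4.8 to 5.0 Mb rose most, with 2.48 and 6.69 kb and 3.25 and 3.02 kb in WT PMA against at most 0.5 kb in WT mock. The windows from 4.4 to 4.6 Mb rose by 1.58 and 1.69, to 3.16 to 4.17 kb in WT PMA. In 16q24 the windows from 84.6 to 84.7 and from 87.4 to 87.5 Mb rose by 1.66 and 2.01, to 4.78 and 9.37 kb and to 3.64 and 2.5 kb. The window from 3.8 to 3.9 Mb, inside CREBBP, an acetyltransferase and transcriptional coactivator, had 0 and 1.0 kb in WT mock, 7.24 and 2.76 kb in WT PMA, 1.0 and 0.744 kb in KO mock and 2.77 and 3.98 kb in KO PMA. It was among the 22 windows that were higher in KO cells with neither treatment. The windows that fell, from 2.3 to 2.4, 1.3 to 1.4 and 84.4 to 84.5 Mb, went from at most 2.30 kb in WT mock to 0 kb in WT PMA, the length of a few of the shortest regions.

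In KO cells after PMA the coverage of the bands was greater and lay in fewer windows, as it did on the rest of chromosome 16. In KO PMA against KO mock, 10 of 41 windows of 16p13.3 rose and 2 fell, and 4 of 44 of 16q24 rose and 7 fell. Over all windows 13.1% rose and 5.34% fell, and on the rest of chromosome 16 42 of 312 rose and 18 fell. The counts rested on each KO library: without any 1 of the 4, only 2 or 3 windows of the bands rose and 3 or 4 fell. Without a WT mock library 4 fell. With a pseudocount of 100 bp 2 rose, and with regions of at least 6-fold alone 0 rose and 3 fell. Over all windows tested, 729 of 9552 rose with that pseudocount. At 6-fold, 228 of 7254 rose and 141 fell. The number of windows with any coverage moved down while totals moved up: 41 and 42 of 45 windows of 16p13.3 were covered in KO mock, against 38 and 39 in KO PMA, and 49 and 43 of 53 windows of 16q24 in KO mock, against 36 and 32 in KO PMA. Windows with over 30 kb covered went from 0 and 0 to 13 and 8 in 16p13.3, and from 1 and 3 to 11 and 9 in 16q24. On the rest of chromosome 16, covered windows went from 269 and 256 of 804 in KO mock to 230 and 217 in KO PMA. Those with over 30 kb covered went from 0 and 0 to 17 and 10 there, so neither shift was particular to the bands.

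The largest rise in KO cells after PMA was in the window with RPL3L, and others lay at the windows already named. The window from 1.9 to 2.0 Mb, which holds RPL3L, a muscle form of a ribosomal protein, had 2.32 and 2.92 kb in KO mock and 20.1 and 16.4 kb in KO PMA, a rise of 2.41 (SE 0.27, limma adjusted p = 0.0058). The window from 2.5 to 2.6 Mb rose by 2.23, from 7.96 and 14 kb to the values above (limma adjusted p = 0.042). The window from 3.1 to 3.2 Mb, with the cytokine gene IL32 and zinc-finger genes, had 7.15 and 3.63 kb in KO mock and 34.5 and 22.2 kb in KO PMA (2.22, limma adjusted p = 0.023). The windows from 2.8 to 2.9 Mb, with the splicing gene SRRM2, and from 3.0 to 3.1 Mb, with PKMYT1, the kinase that holds CDK1 in check, rose by 1.95 and 1.84. In 16q24 the windows from 85.3 to 85.5 Mb rose by 1.65 and 1.69, to 41.1 and 35.9 kb and to 41.6 and 33.1 kb. The window from 1.0 to 1.1 Mb, around SOX8, a transcription factor of developing tissues, fell by 1.60, from 3.60 and 7.63 kb to 1.0 and 1.16 kb, with 0 kb in each WT library. The window from 1.2 to 1.3 Mb, with the T-type calcium channel gene CACNA1H, fell by 1.46, from 5.01 and 9.01 kb to 1.65 and 2.0 kb.

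The 9 windows that fell in KO cells after PMA were the SOX8 and CACNA1H windows and 7 windows of 16q24. All but the one from 84.4 to 84.5 Mb were also higher in KO mock than in WT mock cells, but both calls use the same KO mock libraries and so are not separate results. In the window from 84.0 to 84.1 Mb, with the amino acid transporter gene SLC38A8, coverage was 6.61 and 9.62 kb in KO mock and 3.27 and 2.90 kb in KO PMA. In the windows starting at 84.3, 86.3, 87.0 and 88.1 Mb it was 0.5 to 2.84 kb in KO mock and 0 kb in both KO PMA libraries. The window from 87.6 to 87.7 Mb, with JPH3, which encodes a junctional protein of neurons, had 1.72 and 1.5 kb in KO mock and 0.5 and 0 kb in KO PMA. The window from 84.4 to 84.5 Mb, in ATP2C2, which encodes a calcium pump, fell by 1.49 (limma adjusted p = 0.0069), from 1.5 and 2.14 kb to 0 kb in both KO PMA libraries. Apart from the SLC38A8, SOX8 and CACNA1H windows these are changes of a few of the shortest regions. Several of them passed the filter only through the KO mock libraries.

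Along the bands the coverage of KO cells came in blocks, whose limits were set after the values were seen, so they are given as a description. The 13 windows from chr16:1300001-2600000 were 28.9% of the windows of 16p13.3 and held 63.9% ± 1.79 of its covered length in KO PMA (SD, n = 2), or 461 ± 49.6 kb. The same windows held 173 ± 26.0 kb in KO mock, 10.9 ± 4.63 kb in WT PMA and 8.48 ± 3.32 kb in WT mock. This block holds TELO2, a chaperone partner of the DNA damage kinases ATM and ATR, and TSC2, TRAF7 and ABCA3, a lipid transporter of the lung. The 8 windows from chr16:88500001-89300000, from ZFPM1 to CDH15, were 15.1% of the windows of 16q24 and held 52.1% ± 1.31 of its covered length in KO PMA, 353 ± 60.8 kb. They held 161 ± 33.2 kb in KO mock, 28.4 ± 6.81 kb in WT PMA and 19.0 ± 7.36 kb in WT mock. A further 7 windows from chr16:85000001-85700000, which end in GSE1, held 222 ± 23.2 kb in KO PMA, 88.9 ± 4.07 kb in KO mock and 33.5 ± 9.42 kb in WT PMA. A short block at chr16:4300001-4500000, with the transcription factor gene TFAP4 and CORO7, a coronin of the Golgi, held 64.8 ± 4.39 kb in KO PMA, 24.4 ± 3.76 kb in KO mock and 4.99 ± 1.88 kb in WT PMA.

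**Figure D4:**
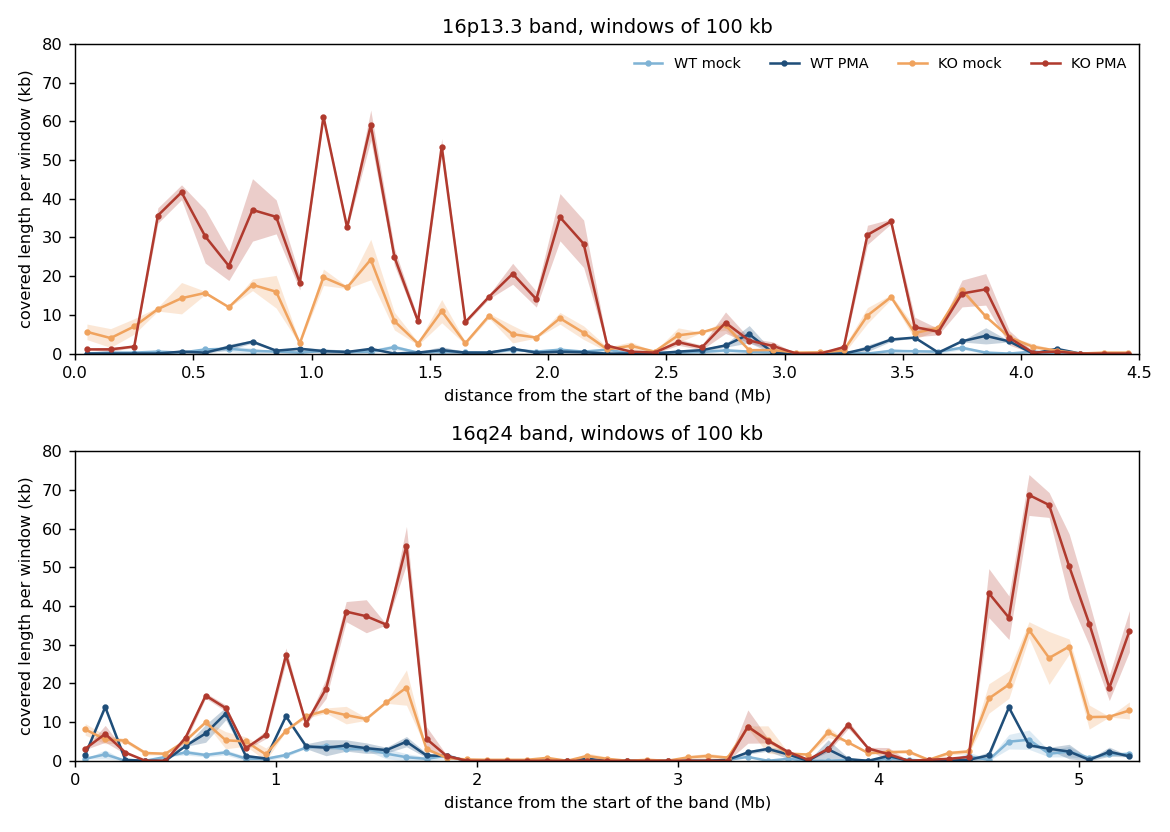
Covered length per 100-kb window (kb) along the 16p13.3 band (top) and the 16q24 band (bottom), against the distance from the start of the band (Mb); points and lines are group means of 2 libraries and the shaded strip spans the 2 libraries. KO PMA and KO mock peak in the same blocks and are near 0 in the same gaps, and the WT lines stay below 15 kb in each window.

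Between these blocks lay long gaps with little coverage in any group. The 15 windows from chr16:85800001-87300000, which hold IRF8, a transcription factor of monocytes, and the forkhead genes FOXF1, FOXC2 and FOXL1, held 1.25 ± 0.354 kb in KO PMA, 7.54 ± 1.23 kb in KO mock, 2.0 ± 0.707 kb in WT PMA and 1.57 ± 0.809 kb in WT mock. They were 28.3% of the windows of 16q24 and held 0.183% of its coverage in KO PMA. KO PMA was there no higher than the WT groups. The 3 windows from chr16:3200001-3500000, around MEFV, held 2.79 ± 0.404 kb in KO PMA, and the 4 windows from chr16:3900001-4300000, across ADCY9, an adenylyl cyclase, 3.62 ± 2.40 kb. The last 5 windows of 16p13.3, from chr16:5000001-5500000, held 0.75 ± 0.354 kb. A share this small in a list of regions above a threshold does not show that γH2AX was absent.

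Genes of the DNA damage response that map to the bands did not share 1 pattern. TELO2 (window from 1.5 to 1.6 Mb) had 15.2 and 16.1 kb covered around it in KO mock and 37.2 and 23.4 kb in KO PMA, with at most 1.14 kb in a WT library. SLX4, a scaffold of nucleases that is itself a Fanconi anaemia gene, lies in the window from 3.6 to 3.7 Mb, where 5.49 and 5.47 kb were covered in KO mock but only 2.19 and 1.0 kb in KO PMA, and 1.25 and 0.5 kb in WT PMA. GINS2, a subunit of the replicative helicase, lies in the window from 85.7 to 85.8 Mb, with 2.92 and 3.16 kb in KO mock, 8.80 and 2.5 kb in KO PMA and at most 1.97 kb in a WT library. Windows of 100 kb hold several genes, so these are values of neighbourhoods and not of single genes.

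The response to PMA differed between genotypes in 7 windows of the bands. In 16p13.3 it was more positive in KO than in WT cells in 4 of 41 windows and less positive in none. In 16q24 it was less positive in 3 of 44 and more positive in none, and 2 of these 3 windows had coverage in the KO mock libraries alone. Over all windows 3.79% were more positive and 12.7% less positive in KO cells, with a median difference of −0.54, against −0.20 in the bands. With libraries centred on their own medians 20 windows of the bands were more positive and 0 less positive. Of all 9552 windows tested with this centring, 812 were more positive and 195 less positive. The largest difference, 2.87 (SE 0.49, limma adjusted p = 0.021), was in the window from 2.3 to 2.4 Mb, with ABCA3. Coverage there was 1.0 and 2.30 kb in WT mock and 0 kb in both WT PMA libraries, and 6.09 and 10.7 kb in KO mock and 27.1 and 22.8 kb in KO PMA. Leaving out 1 library left from 1 to 5 more positive and from 0 to 3 less positive windows, so the counts turn on single libraries.

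The strongest regions in single positions, ranked by the lower of the folds in the 2 libraries of a group, were short. In 16q24 a region of 500 bp at chr16:85709895-85710395 reached 28.5-fold and 34.9-fold over input in the KO PMA libraries, and one of 823 bp at chr16:89188526-89189349 reached 25.0-fold and 22.6-fold in KO mock. In 16p13.3 the highest region found in both libraries was at chr16:3712851-3713351 in KO PMA, at 32.6-fold and 14.5-fold, and at chr16:1759104-1759604 in KO mock, at 29.2-fold and 10.7-fold. The folds of 1 region often differed between the libraries of a group. In WT PMA the highest in 16q24 was at chr16:84798663-84799388, at 14.4-fold and 17.5-fold, in the USP10 window. KO PMA had its second highest 16q24 region just beyond it, at chr16:84799411-84800069, at 18.3-fold and 24.4-fold. In WT mock the highest were at chr16:1612936-1613436, at 13.2-fold and 14.3-fold, and at chr16:89287459-89287959, at 7.38-fold and 16.7-fold. Longest regions were 1419 and 1617 bp in WT mock and 1430 and 2584 bp in WT PMA for 16p13.3 and 16q24, against 4698 and 6641 bp in KO mock.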

How the data were processed

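γH2AX regions were analysed in 8 libraries. The tools were CASAVA 1.4, BWA and HOMER on build hg19, per the submitters' processing notes. Regions were called library by library, with the WT mock input as control, per the file headers: windows of 500 bp with a Poisson p-value threshold of 0.001, at least 2-fold over input with a p-value of 0.0001, and at most 1 tag per bp. The deposited signal of a region is its tag number per 10 M tags, and the deposited fold is a ratio, computed by the authors, of tags over input. An input from KO or PMA cells was not used here.

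Covered length was the number of base pairs inside regions, summed per band, per window of 100 kb and for the rest of chromosome 16. Windows covered in at least 2 libraries (9552) were tested on log2(covered bp + 1000) by limma 3.58.1 (R 4.3.3) with its trend option, in 1 fit of 8 libraries and 4 groups, after a check on simulated data. Band totals were compared by exact permutation over libraries. Tables were made with Python 3.11.15, numpy 2.4.6, pandas 2.3.3 and matplotlib 3.10.9. Depth was 15.6 to 27.2 M tags per library, and the number of libraries limits the precision.

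The text names, per comparison and band, the 5 windows with the largest difference in each direction past the threshold, and per group and band the 3 regions with the highest fold in both libraries and the longest region. Of these, some are given by their values in part or as ranges. The result of 1 such window in KO PMA against WT PMA is not reported here. The windows around CYBA, TELO2, SLX4 and GINS2, the promoters and the blocks were chosen after values were seen. The bands, gene lists and tests were chosen with earlier results of these data known. Gene lists (repair and replication, blood cells, growth signalling, proteases, zinc fingers, forkheads, ribosome and mitochondria, long genes) were to be measured over gene bodies; an hg19 annotation was not used here, so they were not tested. Genes are placed in windows from general knowledge of the hg19 map. Alternatives were a pseudocount of 100 bp, regions of at least 6-fold or at least 1000 bp, 1 tag threshold (7.69 tags per 10 M), centring on the library median, windows covered in at least 1 library, a replicate block and leaving out each library. The 1 tag threshold was set on the mean tags per 500 bp of each called region. It could remove long regions by their mean and could not add regions.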

Additional observations from a re-analysis of the deposited data

Results flagged for a closer look

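In 7 windows of the bands the response of covered length to PMA differed between KO and WT cells by limma's interaction term (adjusted p below 0.05 over all windows tested; log2 scale with 1000 bp added). It was more positive in KO cells in 4 windows of 16p13.3: by 2.14 in the window from 1.3 to 1.4 Mb (SE 0.21, adjusted p = 0.0031), by 2.87 from 2.3 to 2.4 Mb (adjusted p = 0.021), by 1.83 from 2.9 to 3.0 Mb (adjusted p = 0.033) and by 2.42 from 3.1 to 3.2 Mb (adjusted p = 0.049). In these windows both WT PMA libraries had at most 0.715 kb covered and both KO PMA libraries at least 12.0 kb.

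It was less positive in KO cells in 3 windows of 16q24: −1.86 from 84.0 to 84.1 Mb (limma adjusted p = 0.039), −1.57 from 84.3 to 84.4 Mb (adjusted p = 0.015) and −0.79 from 86.3 to 86.4 Mb (adjusted p = 0.049). In the last 2 of these windows only the KO mock libraries had any coverage, 2.49 and 1.53 kb and then 1.0 and 0.5 kb, with 0 kb in the other 6 libraries. Their interaction terms therefore restate the KO mock values and show no response in WT cells. In the window from 84.0 to 84.1 Mb all 8 libraries had coverage.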

How the results depend on the processing

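Counts of band windows are given as higher and lower. With regions of at least 6-fold, KO mock against WT mock had 6 higher, KO PMA against WT PMA 6 higher, WT PMA against WT mock 2 and 0, KO PMA against KO mock 0 and 3, and the interaction 0 higher. Over all 7254 windows tested at this setting these counts were, in order, 155, 358, 1032 and 106, 228 and 141, and 188. With regions of at least 1000 bp the values were 33 higher for KO mock against WT mock, 2 and 0 for WT PMA against WT mock, 27 higher for KO PMA against KO mock, and 17 and 5 for the interaction. Over all 3185 windows tested at this setting they were 523, 961 and 72, 993, and 676 and 654. With 1 tag threshold, WT PMA against WT mock had 4 and 0 and the interaction 6 lower, against 1295 and 90 and 732 of all 7422 windows. With centring, WT PMA against WT mock had 4 and 9 and the interaction 20 and 0, against 1247 and 941 and 812 and 195 of all 9552 windows. With a pseudocount of 100 bp, KO PMA against KO mock had 2 higher and the interaction 5 lower, against 729 and 1043 of all 9552 windows. With windows covered in at least 1 library the band counts were 7 and 1, against 1082 and 886 of all 12162 windows.

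Libraries with the same replicate number did not deviate together: the correlations of their deviations over 9552 windows were −0.06 to 0.16, and 1 of 6 was above 0.1. They are therefore taken to share only a number. With a replicate block, KO PMA against KO mock had 7 higher windows in the bands (1086 of all 9552) and the interaction 1 lower (864). The other 8 counts stayed within 1.5 times, with 55 and 43 higher windows in KO against WT under mock and after PMA.

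Leaving out each library in turn, the counts ran from 25 to 55 higher and stayed at 0 lower for KO mock against WT mock, from 36 to 46 and 0 to 1 for KO PMA against WT PMA, from 4 to 8 and 0 to 3 for WT PMA against WT mock, from 2 to 13 and 3 to 8 for KO PMA against KO mock, and from 1 to 5 and 0 to 3 for the interaction. The band ratios kept their direction in all 48 refits without a library. For the named windows, 175 of the refits without a library lost the call and 267 kept it.

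Log2 ratios of covered length in 16p13.3 at 6-fold, with 1 tag threshold and at 1000 bp were 2.68, 5.07 and 7.64 for KO mock against WT mock and 2.0, 5.34 and 7.60 for KO PMA against WT PMA. KO PMA against KO mock was 0.41 and 1.84 at 6-fold and 1000 bp. In 16q24 the same 3 settings gave 1.69, 3.67 and 4.55 under mock treatment and 0.88, 3.01 and 4.05 after PMA. WT PMA against WT mock was 1.67 with 1 threshold and 2.02 at 1000 bp, and KO PMA against KO mock was −0.015 at 6-fold, a change of sign, and 1.53 at 1000 bp. For the share of chromosome 16, 16p13.3 gave 3.90 under mock treatment at 1000 bp and 1.78, 2.77 and 4.38 after PMA in the 3 settings. In 16q24 it gave −0.013 with 1 threshold, a change of sign, and 0.69 at 1000 bp under mock treatment, and 0.36 with 1 threshold after PMA.

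At 6-fold, 5 results of named windows kept their call, 38 lost it and 6 changed sign: from 88.8 Mb to −0.21 under mock treatment and −0.50 after PMA for KO against WT, from 4.4 Mb to −0.23 for PMA in WT, from 89.0 Mb to −0.13 for PMA in KO, and for the interaction from 3.1 Mb to −0.059 and from 84.0 Mb to 0.22. The causes of these shifts were not tested. The region lists hold nothing below the caller's threshold, so a window listed at 0 may hold weaker γH2AX, and 2 libraries a group limit every comparison.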
